A study of Mus musculus with 6 samples.

Results

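The genes described here encode the coat of the caveola and the diaphragm that spans its neck: Plvap, Cav1, Cav2, Ptrf, Sdpr, Prkcdbp, Ehd2, Ehd4 and Pacsin2. They were chosen by symbol, 9 of the 24421 genes in the count table, and all 9 had enough counts to be tested. The table lists Cavin1, Cavin2 and Cavin3 under their older symbols Ptrf, Sdpr and Prkcdbp, which are kept below. RNA was sequenced in bulk from retinal endothelial isolates of pups aged 7 days, of mixed BL6/CD1 background. Every pup, in both groups, was injected with tamoxifen at 1 day and carried floxed Smad4. The 3 Smad4-iECKO samples also carried Cdh5-CreERT2, a Cre recombinase that tamoxifen activates and that the VE-cadherin promoter drives in endothelium, and the 3 Smad4f/f samples, the controls, are labelled with the floxed gene alone. Pups with Cre and an unfloxed Smad4 are not analysed here, and the labels do not say whether a sample held 1 pup or several. The comparison asks how loss of SMAD4, the common partner of the receptor SMADs of the BMP and TGF-beta pathways, changes endothelial transcripts while the retinal vessels are still growing.

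Caveolae are flask-shaped pits of the plasma membrane. Caveolins insert into the inner leaflet, cavins assemble a coat around them, and EHD and pacsin proteins bind the neck and hold it at the membrane. PLVAP forms the thin diaphragms that close caveolae, fenestrae and transendothelial channels. In brain and retina, mature barrier endothelium makes few caveolae and little PLVAP, while immature and leaky vessels carry PLVAP, so the gene is widely used as a marker of vessels without a barrier.

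A stretch of coding sequence from 4 of the genes is shown because base composition recurs in the results below. Each is the first 120 bases of the longest coding exon, read 5′ to 3′ on the gene's own strand from the mm10 genome with the GENCODE M21 annotation, with every G and C in capitals. The Cav1 stretch lies in exon 2 at chr6:17339113-17339232 on the plus strand, and the Cav2 stretch lies in exon 2 at chr6:17281895-17282014, also on the plus strand. The Ptrf stretch lies in exon 2 at chr11:100959206-100959325 on the minus strand, and the Plvap stretch in exon 3 at chr8:71508188-71508307 on the minus strand.
Cav1: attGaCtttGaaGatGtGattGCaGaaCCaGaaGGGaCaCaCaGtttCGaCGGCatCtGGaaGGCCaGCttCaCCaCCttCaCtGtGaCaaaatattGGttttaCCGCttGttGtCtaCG
Cav2: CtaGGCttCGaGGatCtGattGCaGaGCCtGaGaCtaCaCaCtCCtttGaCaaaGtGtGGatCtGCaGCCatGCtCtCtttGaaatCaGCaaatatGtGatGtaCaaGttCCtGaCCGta
Ptrf: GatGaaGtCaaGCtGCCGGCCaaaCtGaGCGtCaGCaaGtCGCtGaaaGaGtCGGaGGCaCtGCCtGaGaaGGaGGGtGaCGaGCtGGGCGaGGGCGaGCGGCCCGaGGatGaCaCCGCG
Plvap: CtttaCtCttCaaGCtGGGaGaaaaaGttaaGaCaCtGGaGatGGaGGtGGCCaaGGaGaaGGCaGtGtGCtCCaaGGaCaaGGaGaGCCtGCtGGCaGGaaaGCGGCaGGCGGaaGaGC
The caveolin stretches held 45.8% G and C each, the Ptrf stretch 64.2% and the Plvap stretch 55.0%. Aligned base by base without gaps, the Cav1 and Cav2 stretches were identical at 66 of 120 positions, or 55.0%. Over the longest annotated transcript of each gene, GC content was 37.5% for Cav2, 42.6% for Cav1, 44.4% for Sdpr and 51.4% for Ehd4. It was 52.7% for Pacsin2, 54.5% for Ehd2, 56.4% for Prkcdbp, 57.3% for Ptrf and 60.6% for Plvap.

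Levels are given as CPM, reads of a gene scaled to the size of the library. Total counts ran from 12633018 to 23164952 in 5 libraries and came to 2233360 in Smad4-iECKO replicate 2. That library stood apart in base composition too. Its median log2 deviation from the gene mean climbed from -1.22 in the 1427 genes lowest in GC content to 0.79 in the 1426 highest, the ends of 10 equal bins. In the other 5 libraries it lay between 0.13 and 0.36 in the lowest bin and between -0.23 and 0.039 in the highest. Endothelial RNA also varied: 20 endothelial identity genes summed to 9448, 1788 and 5531 CPM in Smad4f/f replicates 1 to 3, and to 3057, 6218 and 4968 CPM in Smad4-iECKO. All 20 were detected in every library, Kdr being the most abundant. Rod photoreceptor genes, a measure of neural retina in the isolates and led by Rp1, summed to between 6020 and 11572 CPM in Smad4f/f and between 6229 and 9810 CPM in Smad4-iECKO. Smad4 itself, counted over the whole gene, gave 109, 153 and 157 CPM in the controls and 128, 93.8 and 134 CPM in Smad4-iECKO, with a log2 fold change of -0.24 ± 0.29 (SE). A count over the whole gene includes exons that a floxed deletion would leave in place, so it does not check the genotype labels.

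No gene passed a Benjamini-Hochberg adjusted p of 0.05 in edgeR's quasi-likelihood test, 0 of 14362 or 0%, while 188 genes, or 1.31%, had an unadjusted p under 0.05 and 0.919% had one with a positive fold change. Plvap was the 1 member of the 9 below that unadjusted level, and the only member whose CPM did not overlap between the groups. Among all genes, 2.49% lay higher in Smad4-iECKO without overlap and 2.83% lower. The fold change was positive for 6 members and negative for 3, with a median log2 fold change of 0.087, against 48.2% positive and a median of -0.017 over all genes tested. The adjusted p was 1.00 for each of the 9 in this edgeR test. The plot of CPM by library shows these values.

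**Figure D1:**
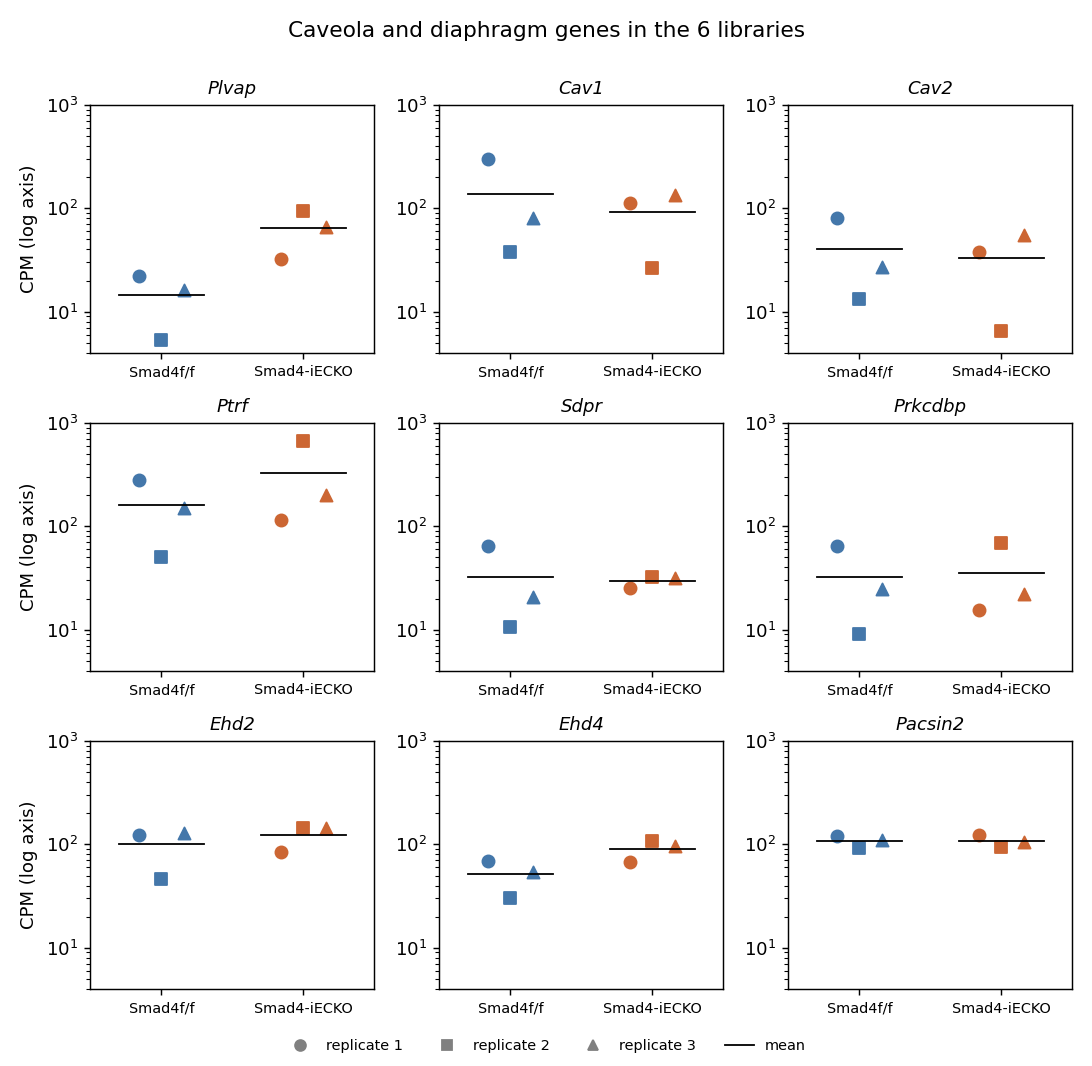
CPM of the 9 genes in each library, on a log axis. Points are the 6 libraries, shaped by replicate number, and bars are group means of 3. Plvap is the panel in which all 3 Smad4-iECKO points, from 32.5 to 94.2 CPM, lie above all 3 Smad4f/f points, from 5.30 to 22.0 CPM.

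Plvap (chromosome 8, 71497765 to 71511752, minus strand) had the largest fold change of the 9 genes. It was counted at 22.0, 5.30 and 16.4 CPM in Smad4f/f replicates 1, 2 and 3, and at 32.5, 94.2 and 65.5 CPM in Smad4-iECKO replicates 1, 2 and 3. Values below follow the same order of replicates. The lowest Smad4-iECKO library stood above the highest control. The group means were 14.5 ± 8.48 CPM and 64.1 ± 30.9 CPM (SD over 3 libraries, as for every mean below), a 4.40-fold difference of means. The log2 fold change was 2.13 ± 0.57 (SE, as for every log2 fold change below), and its unadjusted p of 0.00471 in edgeR ranked 17 of the 14362 genes. With DESeq2 the log2 fold change was 2.15 ± 0.58, with an unadjusted p of 0.000195 and an adjusted p of 0.183. DESeq2 called 12 of 17013 genes at an adjusted p under 0.05, or 0.0705%, and no member was among them.

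Levels per exon length, which adjust for the length of a gene but not for its base composition, placed Plvap differently in the groups. Per kilobase of exon it held 11.1, 2.67 and 8.24 CPM in Smad4f/f, rank 9, 9 and 7 from the highest of the 9 genes in those libraries. In Smad4-iECKO it held 16.3, 47.4 and 33.0 CPM per kilobase, rank 6, 2 and 3. The rank of 2 is from replicate 2, whose levels climbed with GC content, and Plvap had the highest GC content of the 9. Without Smad4-iECKO replicate 2, the log2 fold change of Plvap was 1.74 ± 0.58 (edgeR, unadjusted p = 0.0210).

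For the caveolins, which form the membrane scaffold, the groups overlapped. Cav1 (chromosome 6, 17306335 to 17341452, plus strand), needed for caveolae to form, gave 297, 37.9 and 80.0 CPM in the Smad4f/f replicates and 113, 26.5 and 135 CPM in Smad4-iECKO. The groups overlapped, and the spread among the controls was as large as their mean, 138 ± 139 CPM against 91.5 ± 57.4 CPM. The log2 fold change of Cav1 was -0.59 ± 0.77 (edgeR, unadjusted p = 0.464). Cav2 (chromosome 6, 17281185 to 17289115, plus strand) encodes the partner that forms hetero-oligomers with CAV1 and lies beside it in the genome. It gave 80.1, 13.2 and 26.8 CPM in the controls and 37.5, 6.50 and 55.4 CPM in Smad4-iECKO. The value in Smad4-iECKO replicate 2 rests on 14 counts, with an exact Poisson 95% interval of 3.55 to 10.9 CPM that covers counting error only. Means were 40.03 ± 35.4 and 33.1 ± 24.8 CPM, and the log2 fold change of -0.24 ± 0.77 was within the spread of the replicates (edgeR, unadjusted p = 0.761).

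Both caveolins varied together from library to library. Counts of Cav2 per count of Cav1 were 0.269, 0.350 and 0.335 in the controls and 0.333, 0.246 and 0.410 in Smad4-iECKO, while Cav1 itself ran from 26.5 to 297 CPM. Across the 6 libraries the centred log2 CPM of Cav1 and Cav2 differed by a root mean square of 0.24, the smallest difference of any pair of the 9.

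Among the cavins, Ptrf had the highest mean level per length of all 9 genes in both groups, but not the highest level in each library. Cav1 stood above it in replicate 1 of both groups, and Pacsin2 in Smad4f/f replicate 2. Per kilobase of exon, Ptrf held 31.9, 186.5 and 55.9 CPM in the Smad4-iECKO replicates. Ptrf (Cavin1, chromosome 11, 100956733 to 100970887, minus strand), the cavin needed for the coat to assemble, gave 280.1, 50.7 and 149.7 CPM in the Smad4f/f replicates and 114, 669 and 201 CPM in Smad4-iECKO. Smad4-iECKO replicate 2 was above every other library and replicate 1 was below 2 of the controls. Means were 160.2 ± 115 and 328 ± 298 CPM, with a log2 fold change of 1.03 ± 0.73 (edgeR, unadjusted p = 0.193). The log2 fold change of Ptrf was -0.045 ± 0.64 without Smad4-iECKO replicate 2 and 1.70 ± 0.84 without Smad4f/f replicate 1.

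Sdpr (Cavin2, chromosome 1, 51289126 to 51302960, plus strand), a cavin that shapes the membrane, gave 65.1, 10.6 and 20.6 CPM in the controls and 25.2, 32.0 and 31.8 CPM in Smad4-iECKO. The Smad4-iECKO values lay inside the range of the controls. Means were 32.1 ± 29.0 and 29.7 ± 3.85 CPM, and the log2 fold change was -0.11 ± 0.59 (edgeR, unadjusted p = 0.850). Prkcdbp (Cavin3, chromosome 7, 105480083 to 105482300, minus strand) gave 64.0, 9.13 and 24.8 CPM in the Smad4f/f replicates and 15.6, 68.7 and 22.0 CPM in Smad4-iECKO. Libraries of the same group lay much further apart than the group means, 32.7 ± 28.3 and 35.4 ± 29.0 CPM, and the log2 fold change was 0.087 ± 0.74 (edgeR, unadjusted p = 0.909). The annotated gene Gm45667 on the opposite strand shares exonic bases with Prkcdbp, and the library kit does not mark strand, so reads of both cannot be told apart there. The value turned in both directions with single libraries: the log2 fold change of Prkcdbp was -0.82 ± 0.73 without Smad4-iECKO replicate 2 and 1.02 ± 0.75 without Smad4f/f replicate 1.

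Of the neck proteins, Ehd4 had the smallest unadjusted p, and among the 9 genes it came after Plvap. Ehd4 (chromosome 2, 120089175 to 120154606, minus strand), a membrane-remodelling ATPase related to EHD2, gave 69.6, 30.3 and 54.3 CPM in the controls and 68.0, 107 and 97.1 CPM in Smad4-iECKO. The groups overlapped at 1 point, the lowest Smad4-iECKO library lying just under the highest control. Means were 51.4 ± 19.8 and 90.6 ± 20.2 CPM, a 1.76-fold difference of means. The log2 fold change of 0.82 ± 0.37 had an unadjusted p of 0.0535 in edgeR, rank 205, and 0.0497 in DESeq2.

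Ehd2 (chromosome 7, 15946958 to 15967567, minus strand), which forms a ring at the neck and steadies caveolae at the surface, gave 125, 46.4 and 129 CPM in the Smad4f/f replicates and 85.3, 144 and 143 CPM in Smad4-iECKO. A single control library lay well below the rest and the groups overlapped. Means were 100.04 ± 46.5 and 124 ± 33.8 CPM, and the log2 fold change was 0.31 ± 0.42 (edgeR, unadjusted p = 0.481). Pacsin2 (chromosome 15, 83375607 to 83464606, minus strand), an F-BAR protein that bends the membrane at the neck, gave 122, 92.7 and 109 CPM in the controls and 125, 95.2 and 105 CPM in Smad4-iECKO. Its means of 108.0 ± 14.7 and 108.3 ± 15.01 CPM were the closest of the 9, with a log2 fold change of 0.0054 ± 0.27 (edgeR, unadjusted p = 0.984). Pacsin2 is expressed in many cell types, and its level stayed between 92.7 and 125 CPM in libraries whose endothelial genes summed to between 1788 and 9448 CPM.

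In Smad4f/f the mean level per kilobase of exon ran from Ptrf at 44.7 ± 32.1 CPM per kilobase and Cav1 at 40.2 ± 40.4, through Pacsin2 at 22.0 ± 2.99, Prkcdbp at 19.7 ± 17.0 and Ehd2 at 19.5 ± 9.09, to Ehd4 at 12.8 ± 4.95, Cav2 at 12.004 ± 10.6, Sdpr at 10.5 ± 9.50 and Plvap at 7.32 ± 4.27. In Smad4-iECKO it ran from Ptrf at 91.5 ± 83.2 and Plvap at 32.3 ± 15.6, through Cav1 at 26.6 ± 16.7, Ehd2 at 24.3 ± 6.61, Ehd4 at 22.6 ± 5.03, Pacsin2 at 22.1 ± 3.06 and Prkcdbp at 21.3 ± 17.4, to Cav2 at 9.94 ± 7.42 and Sdpr at 9.72 ± 1.26. In both orders each neighbouring pair differed by less than the larger of their SDs.

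Because the endothelial share of the RNA differed between libraries, each gene was also set against the mean log2 CPM of the 20 endothelial genes in the same library. Of those 20 genes, 5 had a positive and 15 a negative fold change, with a median log2 fold change of -0.34. None passed the adjusted threshold in edgeR, and whether the list as a whole differs by genotype was not tested. In bulk RNA, fewer cells of a type and less RNA per cell cannot be told apart. Relative to those genes, Plvap lay at -3.93, -3.41 and -3.38 in Smad4f/f and at -1.65, -0.98 and -1.30 in Smad4-iECKO, all on the log2 scale. The difference of means was 2.26. On this scale the controls averaged -3.57 ± 0.31 (SD) and the Smad4-iECKO libraries -1.31 ± 0.33. Exact permutation of the group labels, two-sided, gave p = 0.1, the smallest that 3 against 3 allows, for Plvap, Ptrf and Ehd4 of 9 genes tested, without adjustment.

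Those 3 members did not overlap between the groups on this scale, all of them higher in Smad4-iECKO, against 2.05% of all genes higher, 0.766% lower and 2.82% either way. Ptrf lay at -0.27, -0.19 and -0.19 in Smad4f/f and at 0.17, 1.84 and 0.31 in Smad4-iECKO, so the controls were tight and 1 Smad4-iECKO library was far above the other 2. Ehd4 lay at -2.27, -0.93 and -1.65 in Smad4f/f and at -0.58, -0.80 and -0.74 in Smad4-iECKO, where the gap between the groups was small beside the spread of the controls. With 6 core endothelial genes, or with the median of the 20, in place of their mean, Plvap and Ptrf were without overlap and Ehd4 was not. No share over all genes was computed for those settings.

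The caveolins on this scale turned on 1 library. Cav1 lay at -0.18, -0.61 and -1.10 in Smad4f/f and at 0.14, -2.81 and -0.26 in Smad4-iECKO. Cav2 lay at -2.07, -2.12 and -2.67 in Smad4f/f and at -1.44, -4.81 and -1.54 in Smad4-iECKO. Smad4-iECKO replicate 2 was the lowest of the 6 libraries for both genes. Leaving it out, the difference was 0.57 for Cav1 and 0.80 for Cav2, and 6 of the 9 genes were without overlap, Cav2, Sdpr and Ehd2 joining the 3 above, against 4.44% of all genes higher and 1.08% lower in the same 5 libraries.

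**Figure D2:**
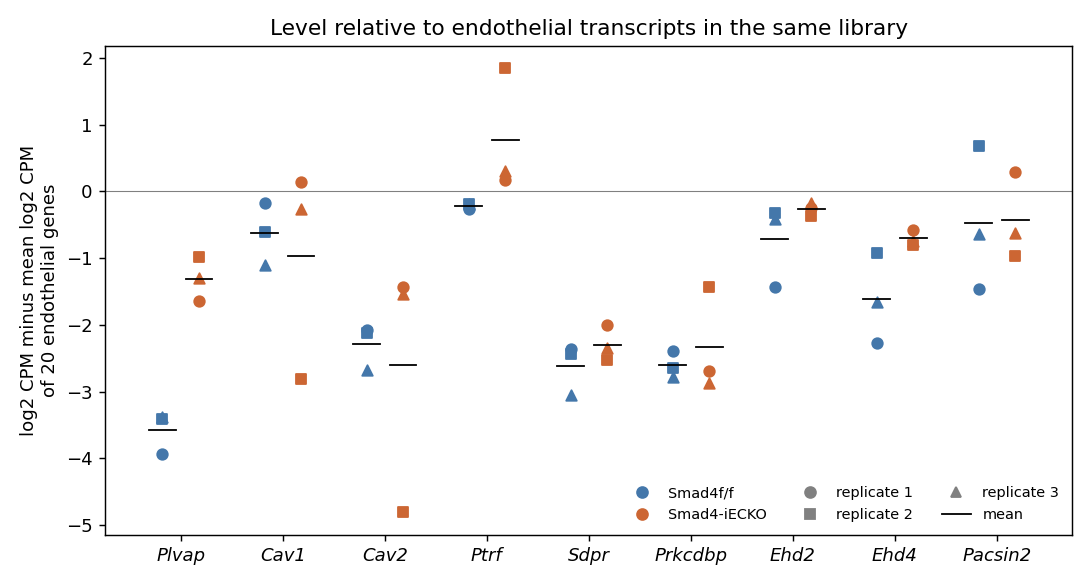
Log2 CPM of each gene minus the mean log2 CPM of 20 endothelial genes in the same library. Points are libraries, coloured by group and shaped by replicate, and bars are means of 3. Plvap lies between -3.93 and -3.38 in Smad4f/f and between -1.65 and -0.98 in Smad4-iECKO, while Cav1 and Cav2 have 1 low Smad4-iECKO point each, replicate 2.

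Ratios of counts between members, taken within a library, do not depend on any scaling. Counts of Plvap per count of Cav1 were 0.0739, 0.140 and 0.205 in Smad4f/f, then 0.288, 3.56 and 0.484 in Smad4-iECKO. Counts of Plvap per count of Ptrf were 0.0785, 0.105 and 0.109 in the controls and 0.284, 0.141 and 0.327 in Smad4-iECKO. In both ratios the groups did not overlap, as for 0.822% of all genes on the higher side in their ratio to Cav1 and 0.146% in their ratio to Ptrf. The ratio of Prkcdbp to Ptrf was 0.229, 0.180 and 0.166 in Smad4f/f, then 0.137, 0.103 and 0.110 in Smad4-iECKO, lower in each Smad4-iECKO library than in any control, as for 3.16% of all genes in their ratio to Ptrf. The ratio of Ehd4 to Ehd2 was 0.559, 0.653 and 0.421 in the controls and 0.798, 0.740 and 0.678 in Smad4-iECKO, higher in each, as for 0.856% of all genes in their ratio to Ehd2. Of 9 ratios computed, the other 5 overlapped between the groups, those of Ptrf, Sdpr, Prkcdbp, Cav2 and Ehd2 to Cav1. The ratio of Ptrf to Cav1 was 0.942, 1.34 and 1.87 in the controls and 1.02, 25.3 and 1.48 in Smad4-iECKO. None of the ratios was tested.

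Smad4-iECKO replicate 2 set the members apart along their GC content. Its log2 CPM minus the mean of the other 5 libraries was -2.44 for Cav2 and -2.004 for Cav1, the genes of lowest GC content. The difference was 2.16 for Plvap, 2.28 for Ptrf and 1.64 for Prkcdbp, the genes of highest GC content. The other 4 genes lay between, at 0.31 for Sdpr, 0.84 for Ehd4, 0.56 for Ehd2 and -0.21 for Pacsin2. How far base composition sets the levels of these genes in that library was not tested.

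**Figure D3:**
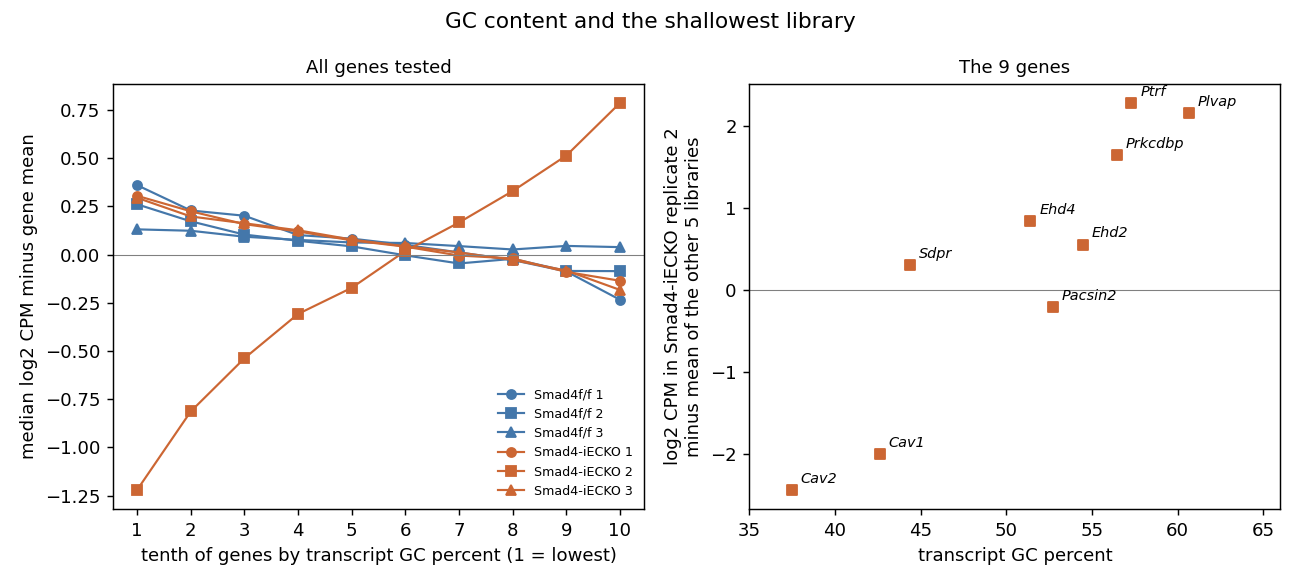
Left, the median log2 deviation from the gene mean in each of 10 equal bins of genes by transcript GC percent, 1 line per library. Smad4-iECKO replicate 2 climbs from -1.22 to 0.79 while the other 5 lines stay between -0.23 and 0.36. Right, the log2 CPM of the 9 genes in that library minus the mean of the other 5 libraries, against their GC percent, with Cav2 lowest at -2.44 and Ptrf highest at 2.28.

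A fit in which each library's trend with GC content was removed was therefore added after the data were seen. Plvap then stood at 25.8, 5.79 and 16.1 CPM in Smad4f/f and at 36.2, 52.8 and 75.0 CPM in Smad4-iECKO. The groups still did not overlap, as for 3.08% of all genes on the higher side, and the log2 fold change of Plvap was 1.80 ± 0.52 (edgeR, unadjusted p = 0.00746). Ehd4 kept a log2 fold change of 0.81 ± 0.33 (unadjusted p = 0.0361), and with Plvap it made 2 of 9 members under 0.05, against 1.56% of all genes. Ptrf moved to 0.65 ± 0.62, and Cav2 to -0.0017 ± 0.59. Relative to the endothelial genes, Plvap differed by 2.03 after this step, and 4 members were without overlap, Plvap, Ptrf, Sdpr and Ehd4, against 2.21% of all genes. Cav1 and Cav2 were still lowest in Smad4-iECKO replicate 2 on that scale, at -1.88 and -3.28.

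**Figure D4:**
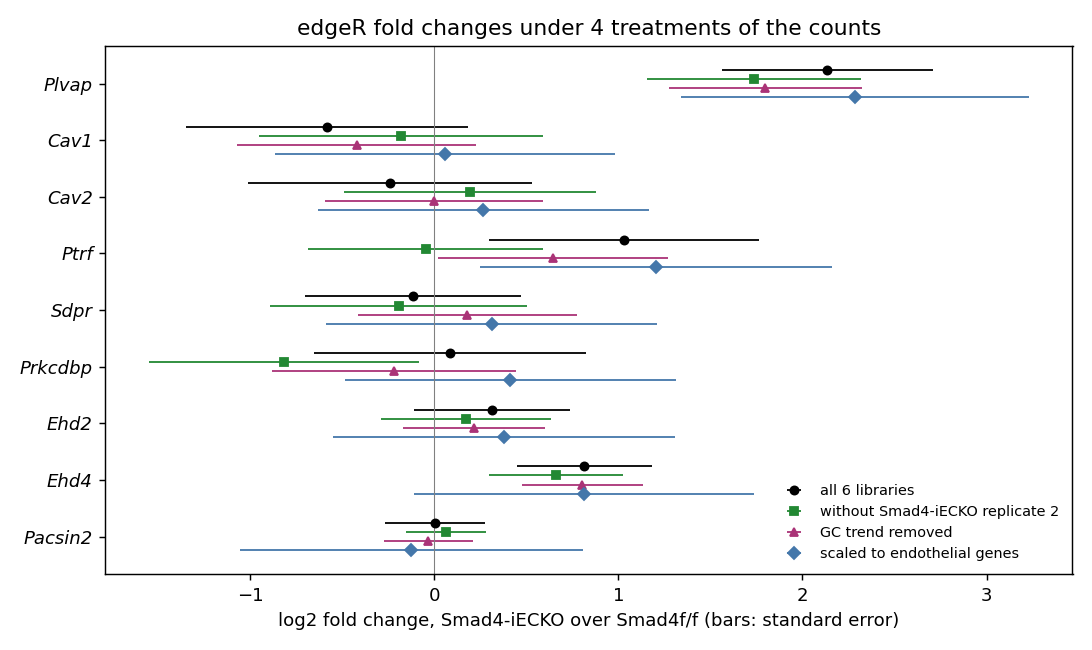
Log2 fold change of the 9 genes, Smad4-iECKO over Smad4f/f, with its standard error, from edgeR fits on all 6 libraries, without Smad4-iECKO replicate 2, with the GC trend removed, and scaled to the endothelial genes. Plvap, Ehd2 and Ehd4 lie above 0 in all 4 fits, while the Ptrf value moves from 1.03 with all libraries to -0.045 without Smad4-iECKO replicate 2. The bar of Ehd2 crosses 0 in each fit, and that of Ehd4 crosses it when scaled to the endothelial genes, at 0.82 ± 0.92.

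Sample titles begin with Lit38 in 4 samples, 2 per group, and with Lit40 in the other 2, 1 per group, and the Lit40 pair includes Smad4-iECKO replicate 2. What Lit stands for is not stated. Within the Lit38 samples, Plvap differed by 1.28 in mean log2 CPM, and within the Lit40 pair by 4.12. Relative to the endothelial genes the 2 values were closer, 2.18 and 2.43. In log2 CPM, 5 of the 9 genes had opposite signs in the 2 sets. Ptrf differed by -0.43 within Lit38 and by 3.72 within Lit40, Prkcdbp by -1.10 and 2.89, and Sdpr by -0.37 and 1.58. Ehd2 differed by -0.20 and 1.64, and Pacsin2 by -0.014 and 0.038. For Ehd4 the values were 0.40 and 1.81. For the caveolins they were negative in both, -0.32 and -0.51 for Cav1 and -0.022 and -1.01 for Cav2. Relative to the endothelial genes, however, both caveolins had opposite signs, 0.58 and -2.20 for Cav1 and 0.88 and -2.69 for Cav2, as did Sdpr, Prkcdbp, Ehd2 and Pacsin2. In an edgeR fit with an interaction of genotype and title prefix, Ptrf and Prkcdbp, 2 of the 9, passed an adjusted p of 0.05, as did 3.84% of all genes. With the GC trend removed both calls were lost, at adjusted p-values of 0.114 and 0.118 in edgeR, and 0 genes passed, with 2891 at an unadjusted p under 0.05. The Lit40 pair holds 1 library per group, so its own spread is not measured.

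Of the 18 other caveola genes listed, 17 were tested. Of these, 14 had a positive fold change and 3 a negative one, against 48.2% positive over all genes tested. None passed the adjusted threshold in edgeR, and the median log2 fold change was 0.22. Mfsd2a, a lipid transporter of barrier endothelium known to hold caveola formation down, had the smallest unadjusted p of the list. It gave 281, 42.4 and 179.9 CPM in the Smad4f/f replicates and 20.6, 58.0 and 50.4 CPM in Smad4-iECKO. Means were 168 ± 120 and 43.0 ± 19.8 CPM, with a log2 fold change of -1.98 ± 0.65 (edgeR, unadjusted p = 0.0141), and the groups overlapped through the low control replicate 2. Relative to the endothelial genes, Mfsd2a lay at -0.26, -0.45 and 0.070 in Smad4f/f and at -2.30, -1.68 and -1.68 in Smad4-iECKO. On that scale the groups did not overlap, with a difference of -1.67 opposite in sign to that of Plvap, and the exact permutation p was 0.1.

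The next smallest unadjusted p-values of the list were those of Flot1 and Pacsin3. Flot1, a flotillin of membrane microdomains, had means of 40.03 ± 6.50 and 56.1 ± 23.3 CPM, a log2 fold change of 0.47 ± 0.35. Its Smad4-iECKO replicates were at 46.1, 82.6 and 39.4 CPM. Pacsin3, a relative of Pacsin2, had means of 7.96 ± 2.37 and 12.7 ± 9.49 CPM, a log2 fold change of 0.62 ± 0.57. Its Smad4-iECKO replicates were at 7.49, 23.7 and 7.01 CPM. Both genes were highest in Smad4-iECKO replicate 2, whose levels climbed with GC content, and both had a GC content of 58.8%. Cav3, the muscle caveolin, had no count in 5 libraries and 0.159 CPM, under the level of 3 counts, in Smad4-iECKO replicate 3.

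Clathrin-coated pits are the other main route of endothelial uptake. Of 18 clathrin coat genes tested, 9 had a positive and 9 a negative fold change, none passed the adjusted threshold in edgeR, and the median log2 fold change was -0.044. The smallest unadjusted p belonged to Dab2, an adaptor for lipoprotein receptors, at 59.6 ± 35.9 CPM in the controls and 28.3 ± 17.3 CPM in Smad4-iECKO, a log2 fold change of -1.05 ± 0.59 (edgeR, unadjusted p = 0.108). Bin1, a membrane-bending protein, followed at 461.5 ± 105 and 642 ± 296 CPM, a log2 fold change of 0.48. Fcho1, which starts coated pits, was at 25.9 ± 6.75 and 33.9 ± 13.1 CPM, a log2 fold change of 0.37. In the Smad4-iECKO replicates Bin1 was at 547, 974 and 406 CPM and Fcho1 at 33.0, 47.4 and 21.3 CPM. Both were highest in replicate 2 of that group. Whether caveola and clathrin genes differ from each other was not tested.

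Markers of other cells were summed in the same libraries. Pigment epithelium and choroid genes, 10 in all, came to 17.5 to 20.9 CPM in the Smad4f/f replicates and 18.3 to 27.4 CPM in Smad4-iECKO, led by Dct at 4.16 to 9.75 CPM. None of the 10 is an endothelial gene, so their sum does not measure the vessels of the choroid. Dct, Rgr (1.49 to 6.50 CPM) and Pmel (0.987 to 8.36 CPM) were each detected in all 6 libraries and highest in Smad4-iECKO replicate 2. In that same library 5 of the 10 genes had no count. Mitf was at its lowest there, 0.929 CPM, under the level of 3 counts. Rpe65 was at or below 0.499 CPM in every library and Lrat was at 0 in 4 libraries. Pericyte and smooth muscle genes, 12 in all and led by Rgs5, came to 629 to 2907 CPM and to 1128 to 2080 CPM, and Cnn1 was at 0 in 5 libraries. Fibroblast genes, 7 in all and led by Pdgfra, came to 110.1 to 441 CPM and to 308 to 801 CPM. The sum was highest in Smad4-iECKO replicate 2, where Ptrf was also highest. In that library Col3a1 (392 CPM), Col1a2 (294 CPM) and Col1a1 (40.4 CPM) were at their highest. Pdgfra (67.3 CPM, against 387 CPM in Smad4-iECKO replicate 3) and Fbln1 (7.43 CPM) were not, and Dcn and Lum had no count there. Microglia and macrophage genes, 12 in all and led by Csf1r, came to 36.7 to 61.3 CPM and to 85.9 to 116 CPM, without overlap. Of the 12, 11 had a positive fold change, against 48.2% of all genes tested. Without overlap, 5 lay higher and 0 lower, against 2.49% and 2.83% of all genes. An unadjusted p under 0.05 in edgeR was found for 3, against 1.31% of all genes, and none passed the adjusted threshold. The part of these cells in the levels of Plvap and Ptrf was not tested.

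Among 10596 other genes with a mean of at least 10 CPM, those whose centred log2 CPM over the 6 libraries was most like that of Plvap were Itgb4, the integrin beta 4 subunit, Cdkn1a, the p21 cell cycle inhibitor, and Col18a1, a basement membrane collagen. Their root mean square differences from Plvap were 0.30, 0.36 and 0.39. Of the other members the nearest to Plvap was Ptrf at 0.75, rank 86, then Ehd4 at 0.77, rank 94, while Cav1 was at 1.76, rank 9374. For Cav1 the nearest genes were Aspm, a spindle protein, 2810417H13Rik and Cmtm3, at 0.16, 0.17 and 0.23, and Cav2 had rank 4. These likenesses describe 6 libraries, whose differences in depth, base composition and endothelial share all genes have in common.

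The authors' deposited table gave Plvap a log2 fold change of 1.72 ± 0.27 (SE) with an adjusted p of 6.27e-08, and Ehd4 a log2 fold change of 0.76 ± 0.18 with an adjusted p of 0.00112. The other 7 members had adjusted p-values from 0.108 for Ptrf to 0.883 for Pacsin2 in the authors' deposited table, where 1905 of 14225 genes, or 13.4%, were under 0.05, 7.7% with a positive fold change. The count table holds each sample in 3 identical columns, and a DESeq2 fit on all 18 columns with a prior on fold changes gave Plvap 1.71 with an adjusted p of 8.40e-08, Ehd4 0.76 with 0.00128, and 2178 genes in all under 0.05. For the 9 genes, mean normalized counts in the authors' deposited table equalled those of the 18-column fit to 6 digits. With each sample entered once, the fold changes of both genes were as large, and neither passed in edgeR or in DESeq2.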

How the data were processed

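RNA was turned into libraries with the TruSeq RNA kit v2 of Illumina, as the labels' protocols state. The submitters' processing notes name STAR, DESeq2 and mm10 without versions. The counting tool is not given in the sources used here. The authors deposited whole-number counts per gene in 18 columns, 3 per sample, and a second table. Per the file headers, the authors deposited in it the mean normalized signal of a gene, its log2 fold change and standard error, the score of the test, and p-values with their adjusted form. The 3 columns of a sample were identical in all 24421 genes, so each sample entered once (n = 3 per group).

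Groups came from the genotype label, and replicate numbers follow accession order and pair nothing. Nothing in the labels says that samples came from separate animals, so a p-value here reflects only how these samples vary, which may be technical. The test was edgeR 4.0.16 (R 4.3.3), a quasi-likelihood F-test with TMM scaling, filterByExpr (minimum count 10, minimum total 15) and Benjamini-Hochberg adjustment over 14362 genes; DESeq2 1.42.0 and limma 3.58.1 were alternatives. CPM is scaled by TMM, log2 CPM uses a prior count of 2, and a standard error is the log2 fold change divided by the square root of its F. A count of 3 was 1.39 CPM in Smad4-iECKO replicate 2 and 0.123 to 0.239 CPM elsewhere, for counting error only. GC content was that of the longest GENCODE M21 (mm10) transcript of a gene, found for 14262 of 14362 genes. Its trend was a loess line (span 0.4, degree 1) of each library's deviation from the gene mean.

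Named genes were the 9 members, up to 3 genes per related list with the smallest unadjusted p, the 3 genes most like Plvap and Cav1, and the most abundant gene of each marker list. Outside that rule, Smad4, Cav3, Rpe65, Lrat, Rgr, Pmel, Mitf, Cnn1 and Gm45667 were chosen after their values or positions were seen. So were the fibroblast genes named beside Pdgfra. Pdgfra is in the fibroblast and the astrocyte list. Other lists summed, in Smad4f/f and Smad4-iECKO, to 1060 to 2262 and 1257 to 2315 CPM for Mueller glia (led by Vim), 640 to 803 and 375 to 1395 CPM for astrocytes (led by Slc1a2), and 0.904 to 40.8 and 0 to 26.2 CPM for erythroid genes (led by Alas2). Members and lists were chosen with earlier results of these data known. The scripts were tested on simulated data. Figures were drawn with matplotlib 3.10.9.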

Additional observations from a re-analysis of the deposited data

Results flagged for a closer look

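In 2 members the interaction of genotype with the title prefix, Lit38 or Lit40, passed the threshold of an edgeR fit. For Ptrf the term, Lit40 minus Lit38, was 4.17 (Benjamini-Hochberg adjusted p = 0.0435 over all genes), and for Prkcdbp it was 4.15 (adjusted p = 0.0458). Over all genes 551 of 14362, or 3.84%, passed that test. The Lit40 side is 1 library per group, one of them the shallow Smad4-iECKO replicate 2, so these p-values take its spread from the other libraries and do not show that the genotype difference depends on the prefix. Neither call held with the GC trend of each library removed: the terms were 3.48 for Ptrf (adjusted p = 0.114) and 3.54 for Prkcdbp (adjusted p = 0.118), and 0 genes passed in edgeR, with 2891 at an unadjusted p under 0.05. Plvap had a term of 2.80 (adjusted p = 0.0618 in edgeR), and 1.81 with the GC trend removed (adjusted p = 0.220).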

How the results depend on the processing

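Plvap kept a positive log2 fold change in 22 of 22 alternatives, from 1.34 to 2.55, and Ehd4 in 22 of 22, from 0.40 to 1.09. Relative to the endothelial list, Plvap and Ptrf were without overlap in 11 of 11 alternatives and Ehd4 in 9. Most of these could not have changed that result. Leaving out a replicate cannot create an overlap, and scaling without TMM shifts all genes of a library alike. Ehd4 overlapped with 6 core endothelial genes and with the median of the list. The number of genes called, 0 in edgeR, was 12 with DESeq2, 8 with limma-voom and sample quality weights, 2235 with DESeq2 on all 18 columns, and 2178 with a prior on fold changes added; it was 0 without each replicate in turn. Members without overlap ranged from 3 to 6 when a replicate was left out, where the number cannot fall below the 3 of all libraries. It was 2 with 6 core endothelial genes and 2 with the median of the list. The share of all genes higher without overlap on this scale was 2.05% with all libraries. It was 4.44% without Smad4-iECKO replicate 2 and 2.21% with the GC trend removed. No such share was computed for the other alternatives, so their member counts have no background to be read against.

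The other 7 members reversed in at least 1 alternative, and the cause was not tested. Scaling to the endothelial list, which moved the median log2 fold change of all genes from -0.017 to -0.28, gave Cav1 0.059, Cav2 0.27, Sdpr 0.31 and Pacsin2 -0.12, and an endothelial covariate gave Cav1 0.040, Cav2 0.24 and Sdpr 0.31. Limma-voom gave Cav2 0.24, Sdpr 0.33 and Prkcdbp -0.027, and with quality weights Cav1 0.62, Cav2 0.82, Sdpr 0.57 and Prkcdbp -0.14. The title prefix, Lit38 or Lit40, as a block gave Plvap 2.21, Sdpr 0.088 and Prkcdbp -0.062 and called 0 genes, and the Lit38 samples alone Ptrf -0.47, Prkcdbp -1.26, Ehd2 -0.17 and Pacsin2 -0.026. Pacsin2 was -0.0028 with no filter and -0.45 on thinned counts. Removal of the GC trend gave log2 fold changes of 0.18 for Sdpr, -0.22 for Prkcdbp and -0.032 for Pacsin2. On the scale relative to the endothelial list, the same removal gave Cav2 0.25. Relative to that list Pacsin2 was -0.11 with 6 core genes and -0.077 with the median.

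With each replicate left out in turn, log2 fold changes ran from -1.03 to 0.64 for Cav1, -0.80 to 0.76 for Cav2, -0.045 to 1.70 for Ptrf, -0.54 to 0.92 for Sdpr, -0.82 to 1.02 for Prkcdbp, -0.036 to 0.54 for Ehd2 and -0.11 to 0.096 for Pacsin2. Relative to the endothelial list they ran from -0.90 to 0.57 for Cav1, -0.89 to 0.80 for Cav2, -0.18 to 0.54 for Prkcdbp and -0.45 to 0.62 for Pacsin2. Samples could not be paired by replicate number, which the labels do not give, and the block on the title prefix above is the blocked fit that the labels allow. Depth limits Cav2 most, at 14 counts in Smad4-iECKO replicate 2.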
